A study of Mus musculus with 7 samples.

Results

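The 8 genes described here handle heme and iron. They are the ferritin chains Fth1 and Ftl1, the transferrin receptor Tfrc, the iron exporter Slc40a1 and the phagosomal iron transporter Slc11a1. The others are the heme transporter Slc48a1, the heme-degrading enzyme Hmox1, and Blvrb, a biliverdin and flavin reductase. All 8 were taken by gene symbol from the 40743 genes of the deposited expression table, where each has a row of its own. They were followed in RNA-seq libraries of retinal microglia (rMG) from Irf8 KO mice without laser (3 libraries, here called unlasered) and Irf8 KO mice with laser (4 libraries, lasered).

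The design asks how rMG that lack the transcription factor IRF8 respond to laser-induced choroidal neovascularisation (CNV), a model in which a laser burn breaks the membrane below the retina and new vessels grow in from the choroid. By the study's methods both groups were Irf8-/- Cx3cr1GFP/+ mice on a C57BL/6J background without the Crb1 mutation, so the germline loss of Irf8 and 1 GFP-replaced Cx3cr1 allele were common to every library. Lasered eyes received 3 to 6 laser spots and were taken on day 7, unlasered mice had no treatment, and the unlasered mice were adult by the study's text, with no age in weeks found for the sequenced mice. After perfusion, cells in the gate CD45low CD11b+ Cx3cr1GFP/+ Ly6C- Ly6G- were sorted, with 10000 cells per library on average, pooled from 3 to 4 mice. Only the central 70% of the retina was used in lasered mice, a restriction not stated for unlasered mice, so laser and the sampled retinal area cannot be told apart. Wild-type libraries were not analysed here. Since each library is a pool, the p-values measure the spread between pools.

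Libraries held 20427558 to 36022954 reads without laser and 37133297 to 45919042 with laser. Values are CPM, the reads of a gene as a share of the library's reads in fixed units, and the limit that a count of 0 allows, 3 reads, lay between 0.0653 and 0.147 CPM. Transcripts of microglia markers were abundant in both groups. The 12 listed were led by Csf1r, at a mean of 8301 CPM without and 8737 CPM with laser. They summed to 24324 to 28921 CPM without and 22409 to 29609 CPM with laser. Of the 11 tested, 0 passed limma's test in either direction. At an unadjusted p under 0.05 there were 3, edgeR and voom called 0, and DESeq2 called 1 as lower, P2ry12. The sum does not tell microglia from other macrophages, which share some of these genes. In the study, Sall1, P2ry12 and Tmem119 were lower in Irf8 KO rMG than in controls. Irf8 was listed jointly with the overlapping gene Gm20388, at 489 to 530 CPM without and 463 to 582 CPM with laser; with no wild-type library beside them and no exon-level values, these reads do not check the knockout label. Rod photoreceptor transcripts stood apart in the unlasered libraries: the 15 rod markers summed to 2234, 19862 and 5742 CPM without laser and to 1029, 454, 815 and 329 CPM with laser, and 14 of them passed as lower. Unlasered library 2 carried the most rod RNA, and values without it are given where they change a call.

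Iron enters most cells through the transferrin receptor, is kept in a shell of ferritin heavy and light chains and leaves through ferroportin, the product of Slc40a1. Macrophages, microglia included, also take iron from the heme of engulfed cells: SLC48A1 carries heme out of the phagolysosome, heme oxygenase opens the ring and frees the iron, and biliverdin reductase reduces the pigment that is left. In iron-poor cells the iron regulatory proteins bind a short hairpin in the messenger RNA, the iron-responsive element (IRE), which blocks translation when it lies in the 5′ untranslated region (UTR) and stabilises the transcript when it lies in the 3′ UTR.

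These hairpins divide the 8 genes, and they are shown because they are the regulatory sequence that 4 of the transcripts share. The pattern searched on the transcript strand was C, any 5 bases, CAGTGN, and 5 bases able to pair with the first 5, with G-T pairs allowed. The bases of C and CAGTG are in capitals, and the positions are GRCm38 with GENCODE M21 transcripts.
Fth1, 5′ UTR, chr19:9982733-9982759, plus strand: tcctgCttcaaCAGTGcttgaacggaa
Ftl1, 5′ UTR, chr7:45459780-45459806, minus strand: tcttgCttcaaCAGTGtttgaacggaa
Slc40a1, 5′ UTR, chr1:45925466-45925492, minus strand: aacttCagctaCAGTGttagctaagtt
Tfrc, 3′ UTR, chr16:32631220-32631246, plus strand: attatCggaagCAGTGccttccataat
Tfrc, 3′ UTR, chr16:32631599-32631625, plus strand: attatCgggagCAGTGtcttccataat
Tfrc, 3′ UTR, chr16:32631664-32631690, plus strand: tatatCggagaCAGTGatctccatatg
Tfrc, 3′ UTR, chr16:32631711-32631737, plus strand: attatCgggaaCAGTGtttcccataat
The storage and export genes matched in the 5′ UTR, Tfrc matched at 4 places in its 3′ UTR, and the other 4 genes held no match in the UTRs searched. Of 21951 coding genes, 0.141% held the pattern in a 5′ UTR and 0.656% in a 3′ UTR. A match describes the letters only, and RNA-seq does not measure translation.

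Across the 8 genes, Ftl1 alone passed the test, at a higher level in lasered rMG. That is 1 of 8 higher and 0 of 8 lower by limma's test on log2(CPM + 1) at an adjusted p under 0.05, beside 3.86% of the 17496 tested genes that were higher and 3.07% that were lower (676 and 537 genes, or 1040 and 466 after TMM scaling). All 8 genes entered the test. At an unadjusted p under 0.05 there were 4 of 8 (3 higher, and Tfrc lower), beside 22.7% of all genes. edgeR and voom made the same number of calls, 1 higher and 0 lower, while DESeq2 called 2 higher and 1 lower, beside 6.73% and 6.52% of all genes. Every lasered library lay above every unlasered library for 3 of 8 genes (Fth1, Ftl1 and Slc48a1), beside 10.4% of all genes, and below them for Tfrc, beside 10.7%. Their median log2 fold change was 0.22, against -0.01 for all tested genes. By the study's own criteria, which ask for a log2 fold change beyond 1.5 in either direction, an unadjusted p under 0.05 and 100 or more in a group (taken here as mean CPM), 0 of 8 were called, beside 0.309% of the tested genes. In these bulk libraries, fewer cells that express a gene and less of its RNA per cell cannot be told apart.

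**Figure D1:**
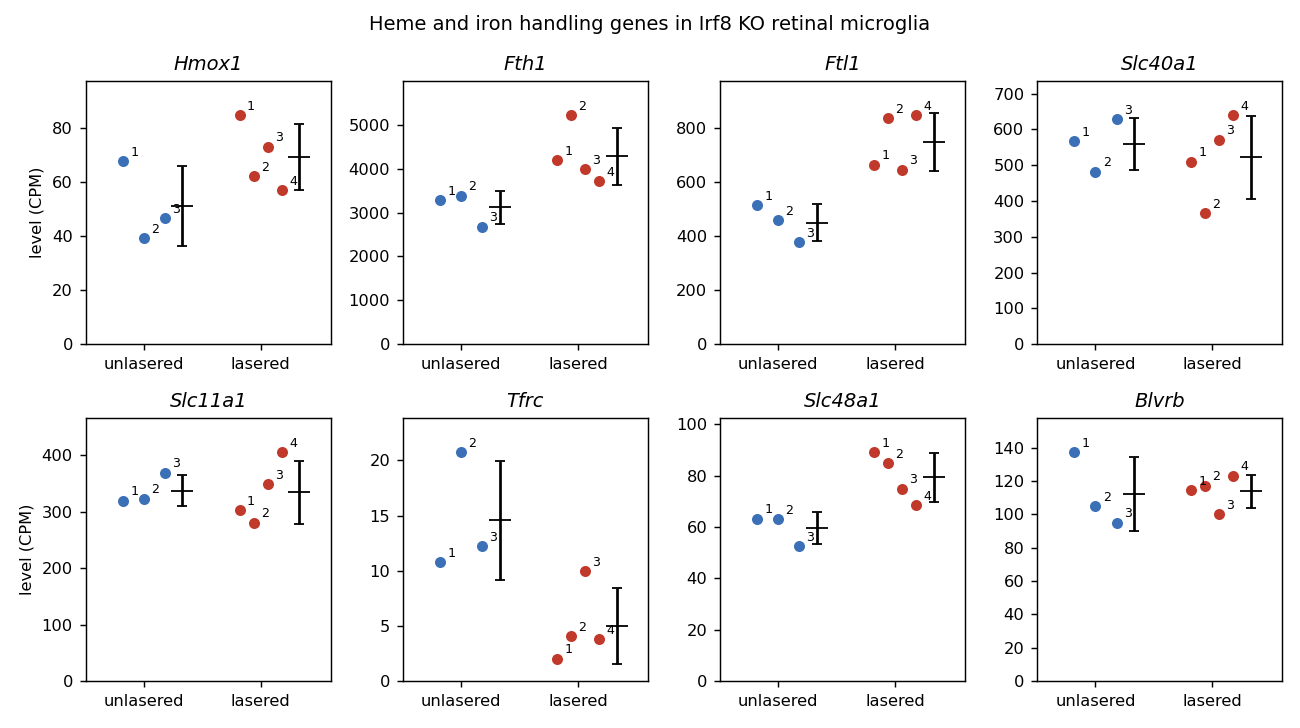
Level in CPM (vertical axes, each from 0) of the 8 genes in unlasered (blue, 3) and lasered (red, 4) libraries; numbers name the libraries, and black marks give the mean and SD. The groups separate for Fth1, Ftl1, Tfrc and Slc48a1 and overlap for Hmox1, Slc40a1, Slc11a1 and Blvrb.

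Ferritin heavy chain, which oxidises incoming iron, had the highest row of the 8 genes. Fth1 (ENSMUSG00000024661, chr19:9980598-9985098) stood at 3285, 3389 and 2675 CPM in unlasered libraries and at 4190, 5216, 3992 and 3717 CPM in lasered libraries. All 4 lasered libraries lay above all 3 unlasered ones, and lasered library 2 was the highest. The mean went from 3116 ± 386 CPM (SD, n = 3) to 4279 ± 654 CPM (SD, n = 4), which placed Fth1 18th and then 12th among all genes by mean CPM. Its log2 fold change was 0.45 (SE 0.14, 95% interval 0.13 to 0.77), with a limma adjusted p of 0.094, so it did not pass. Fth1 passed with other scalings and in DESeq2: the log2 fold change was 0.54 (limma adjusted p = 0.049) after median-of-ratios scaling, 0.58 (limma adjusted p = 0.037) after TMM scaling and 0.46 (adjusted p = 0.048) in DESeq2. Those fits called 5.31%, 5.94% and 6.73% of all genes higher.

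Ferritin light chain, which forms the iron core within the shell, showed the clearest difference. The row named Ftl1 (ENSMUSG00000050708, chr7:45457944-45459884, minus strand) held 513, 459 and 376 CPM without laser and 665, 837, 645 and 846 CPM with laser. The lowest lasered library exceeded the highest unlasered library. Ftl1 rose from 449 ± 68.9 CPM (SD, n = 3) to 748 ± 108 CPM (SD, n = 4), a ratio of means of 1.66, and from 243rd to 128th place among all genes. The log2 fold change was 0.73 (SE 0.15, 95% interval 0.39 to 1.08; limma adjusted p = 0.028). The limma adjusted p moved above 0.05 when some single libraries were left out, to 0.060 without unlasered library 2, 0.055 without lasered library 1, 0.080 without lasered library 2 and 0.059 without lasered library 4, with log2 fold changes of 0.67 to 0.79. At lasered library 4 the ratio of Ftl1 to Fth1 also stood apart, at 0.228 against 0.159 to 0.162 in the other lasered libraries.

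The Ftl1 row does not hold all reads of the gene. A miRNA gene, Gm22133, is annotated within an Ftl1 exon on the same strand (chr7:45458089-45458197), and reads that fall there were listed jointly for both genes: 714, 661 and 531 CPM without and 921, 1094, 958 and 990 CPM with laser. This shared row carried more reads than the Ftl1 row in every library. With it included, Ftl1 stood at 1085 ± 163 CPM (SD, n = 3) and 1739 ± 171 CPM (SD, n = 4). The log2 fold change was then 0.69 (SE 0.13; limma adjusted p = 0.022).

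Ftl1 also has near-identical copies in the genome, and reads of one can be placed on another. Counting stretches of 50 bases that occur identically in the Ftl1 transcript, 11 further rows shared at least 1 of its 919 stretches; Ftl1-ps1 shared 675, Gm15590 318, Ftl2-ps 273 and Ftl1-ps2 125. The same 45 coding bases, from 460 to 504 of the 549 in Ftl1, show how little separates them, with differences from Ftl1 in capitals and each sequence in transcript direction (GRCm38, GENCODE M21).
Ftl1, chr7:45458155-45458199, minus strand: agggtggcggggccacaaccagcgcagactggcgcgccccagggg
Ftl1-ps1, chr13:74407063-74407107, plus strand: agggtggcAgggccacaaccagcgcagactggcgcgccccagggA
Gm15590, chr17:6131902-6131946, minus strand: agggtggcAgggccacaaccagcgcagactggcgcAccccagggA
Ftl2-ps, chr4:125504747-125504791, plus strand: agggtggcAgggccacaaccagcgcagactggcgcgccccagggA
Ftl1-ps2, chr10:130592202-130592246, minus strand: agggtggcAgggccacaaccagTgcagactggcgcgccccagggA
This stretch was chosen for the number of places where a copy differs. Over the whole coding sequence Ftl1-ps1 is 99.6% identical to Ftl1 (547 of 549 bases), Gm15590 99.1%, Ftl2-ps 98.7% and Ftl1-ps2 97.8%.

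Most of these rows, called copies below, followed Ftl1 across the libraries. Gm22774 (log2 fold change -0.08) and Gm22752 (0.18) overlapped between groups. Both are annotated as miRNA genes, and they shared 10 and 1 of the 919 stretches. Ftl1-ps1 went from 641 ± 108 CPM to 1099 ± 136 CPM, above the Ftl1 row itself in both groups, and Gm15590 from 191 ± 28.7 to 327 ± 46.7 CPM (SD, n = 3 and 4). Of the 11 rows, 7 passed as higher and 0 as lower (9 and 0 at an unadjusted p under 0.05 and in DESeq2, 7 and 0 in edgeR and voom), with log2 fold changes between -0.08 and 0.91, but they are not independent of Ftl1 because the reads cannot be told apart. The Ftl1 row held 17.2% of all light-chain reads without and 17.5% with laser (SD 0.086 and 0.67), the shared row 24.4% and 23.4%, and the copies 58.4% and 59.1%, and these shares overlapped between groups. Summed over all these rows, the light chain stood at 2611 ± 408 CPM without and 4259 ± 490 CPM with laser, a log2 fold change of 0.71 (SE 0.14; limma adjusted p = 0.022). The heavy chain had 1 copy that shared stretches, Gm6977 on chromosome X, with 58 of 880. It stood at 590 ± 89.3 and 798 ± 148 CPM, and Fth1 with this row added had a log2 fold change of 0.45 (SE 0.14; limma adjusted p = 0.10).

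**Figure D2:**
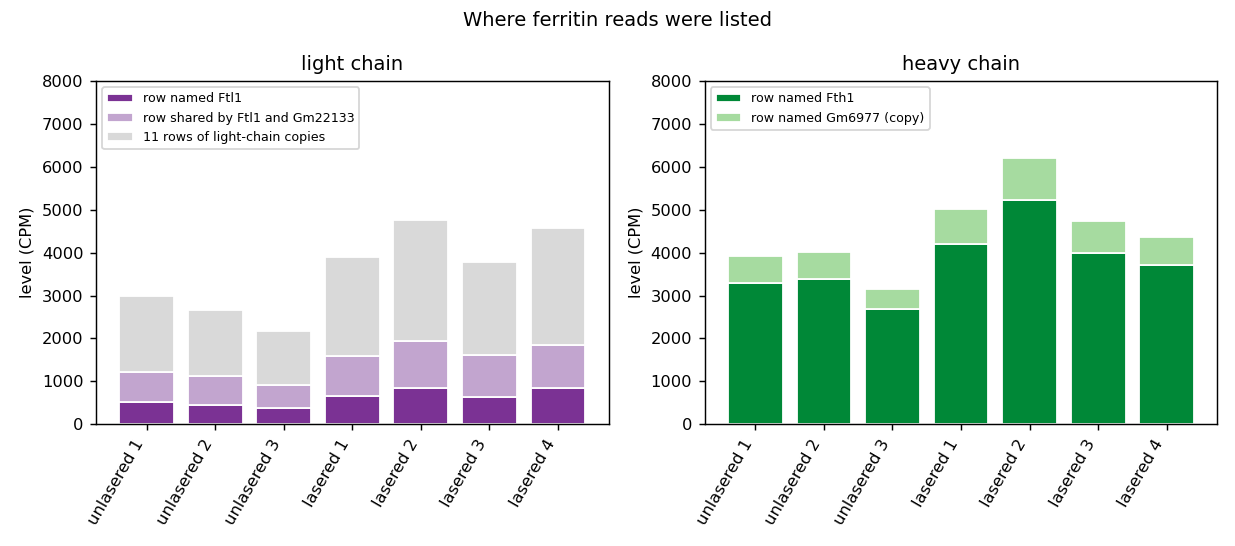
Stacked CPM of the rows that hold ferritin light-chain reads (left) and heavy-chain reads (right) in each library. The light-chain total lies between 2184 and 2996 CPM in unlasered and between 3785 and 4769 CPM in lasered libraries, and of the 3 light-chain blocks the row named Ftl1 is the smallest in every library.

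The balance of the ferritin chains was read within each library, a measure chosen after the values were seen. Light-chain reads with all shared rows, over heavy-chain reads with the copy, gave 0.762, 0.659 and 0.691 without laser and 0.776, 0.769, 0.800 and 1.05 with laser. All lasered ratios were higher, by little in 3 libraries and by more in lasered library 4. The exact two-sided permutation p was 0.057, the smallest that 3 against 4 libraries can give, and 0.086 after adjustment over the 6 ratios computed. With Ftl1 and the Gm22133 row over Fth1 alone the groups overlapped (0.330 to 0.374 and 0.370 to 0.494; exact permutation p = 0.11, adjusted 0.14).

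Transferrin receptor, the cell's intake for transferrin-bound iron, was the least abundant of the 8 genes and moved the other way. Tfrc (ENSMUSG00000022797, chr16:32608920-32632794) held 10.8, 20.8 and 12.2 CPM without laser and 2.02, 4.08, 9.95 and 3.77 CPM with laser, from 89 to 711 reads per library. The groups did not overlap, though lasered library 3 came close to unlasered library 1. The means were 14.6 ± 5.40 CPM (SD, n = 3) and 4.95 ± 3.45 CPM (SD, n = 4), so the unlasered mean was 2.95 times the lasered one. The log2 fold change was -1.50 (SE 0.41, 95% interval -2.42 to -0.58) with a limma adjusted p of 0.061, and Tfrc did not pass. It passed in DESeq2 (log2 fold change -1.55, adjusted p = 0.015) and without lasered library 3 (log2 fold change -1.85, limma adjusted p = 0.036).

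Rod RNA was set beside Tfrc in each library. Unlasered library 2, with the highest rod marker sum at 19862 CPM, also had the highest Tfrc, and the 3 unlasered libraries had the same order in both measures. In the lasered libraries the orders differed: library 1 had the most rod RNA, 1029 CPM, and the least Tfrc. Without unlasered library 2 the log2 fold change of Tfrc was -1.23 (limma adjusted p = 0.17). Leaving out lasered library 1 instead, with its rod sum of 1029 CPM, also gave -1.23 for Tfrc (limma adjusted p = 0.13). The part of rod RNA in this result was not tested. Fth1 over Tfrc, chosen after the values were seen, was 305, 163 and 219 without laser and 2078, 1280, 401 and 986 with laser (exact two-sided permutation p = 0.057, adjusted 0.086).

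**Figure D3:**
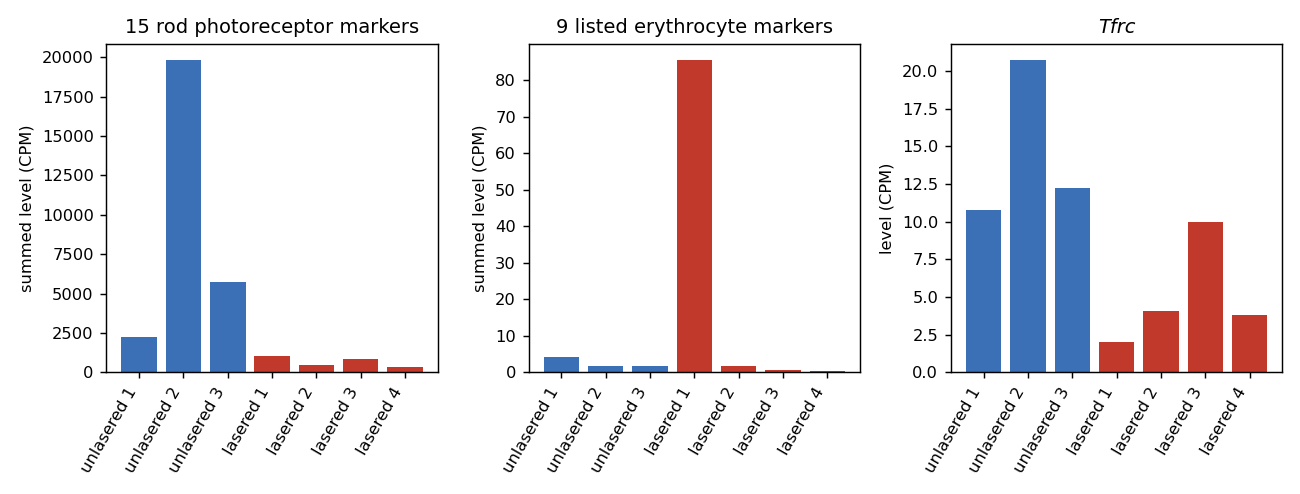
Summed CPM of 15 rod photoreceptor markers (left) and of the 9 erythrocyte markers that were listed (middle), and Tfrc in CPM (right), for 3 unlasered (blue) and 4 lasered (red) libraries. Unlasered library 2 has the highest rod sum, 19862 CPM, and the highest Tfrc, 20.8 CPM; lasered library 1 has the highest erythrocyte sum, 85.6 CPM.

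Neither the iron exporter nor the phagosomal transporters passed. Slc40a1 (ENSMUSG00000025993, chr1:45908068-45926523, minus strand), which encodes ferroportin, stood at 567, 482 and 628 CPM without and 510, 366, 572 and 639 CPM with laser. The groups overlapped, with lasered library 2 lowest and lasered library 4 highest of all 7. The log2 fold change was -0.12 (SE 0.19, 95% interval -0.55 to 0.31; limma adjusted p = 0.76). Fth1 and Slc40a1 parted most in lasered library 2, where Fth1 was 14.2 times Slc40a1 in CPM, against 4.26 to 7.03 in unlasered and 5.81 to 8.22 in the other lasered libraries. Over the groups this ratio overlapped (exact permutation p = 0.23).

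Slc11a1 (ENSMUSG00000026177, chr1:74375195-74386062) encodes NRAMP1, which pumps divalent metal out of the phagosome. It held 320, 323 and 369 CPM without and 303, 281, 348 and 406 CPM with laser. The lasered libraries spread to both sides of the unlasered ones, and the log2 fold change was -0.02 (SE 0.15, 95% interval -0.35 to 0.31; limma adjusted p = 0.94). The intervals of Slc40a1 and Slc11a1 leave room for changes of either sign up to the bounds given.

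Slc48a1 (ENSMUSG00000081534, chr15:97778520-97792692), the heme transporter HRG1, stood at 63.2, 63.1 and 52.5 CPM without and 89.2, 84.8, 74.9 and 68.4 CPM with laser. All lasered libraries were higher, by a narrow margin in lasered library 4. The means were 59.6 ± 6.12 (SD, n = 3) and 79.4 ± 9.42 CPM (SD, n = 4), and the log2 fold change of 0.40 (SE 0.14, 95% interval 0.08 to 0.73) had a limma adjusted p of 0.13. Exons of Hdac7 overlap this gene on the other strand, and the library kit does not mark strand, so their reads could be mixed there.

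Heme oxygenase 1, the inducible enzyme that opens the heme ring, overlapped between groups. Hmox1 (ENSMUSG00000005413, chr8:75093621-75100589) held 67.7, 39.2 and 46.6 CPM without and 84.6, 62.2, 73.1 and 57.1 CPM with laser. Unlasered library 1 lay above lasered libraries 2 and 4. The mean went from 51.2 ± 14.8 CPM (SD, n = 3) to 69.3 ± 12.2 CPM (SD, n = 4). Its log2 fold change was 0.45 (SE 0.21, 95% interval -0.02 to 0.92; limma adjusted p = 0.24).

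Red cell RNA was uneven across the libraries. The 9 listed erythrocyte markers summed to 1.66 to 4.11 CPM without laser and to 85.6, 1.67, 0.479 and 0.431 CPM with laser, led by Hbb-bs. None was at 0 in all libraries and none passed the filter for testing. Lasered library 1, which held nearly all of this RNA, also had the highest Hmox1 of the 7 libraries. Without it the log2 fold change of Hmox1 was 0.35 (limma adjusted p = 0.48). Leaving out unlasered libraries moved Hmox1 further, to 0.28 without library 2 (limma adjusted p = 0.55) and 0.67 without library 1 (limma adjusted p = 0.099). The part of red cell RNA in the Hmox1 level was not tested.

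Relative to its constitutive relative Hmox2, Hmox1 was at 0.628, 0.430 and 0.576 without and 0.915, 0.658, 0.779 and 0.695 with laser (exact two-sided permutation p = 0.057, adjusted 0.086; chosen after the values were seen). Blvrb (ENSMUSG00000040466, chr7:27447978-27466144), a biliverdin reductase that also reduces flavins, stood at 137, 105 and 94.8 CPM without and 115, 117, 100 and 123 CPM with laser. Unlasered library 1 was the highest of the 7, and the log2 fold change was 0.03 (SE 0.15, 95% interval -0.31 to 0.38; limma adjusted p = 0.93).

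**Figure D4:**
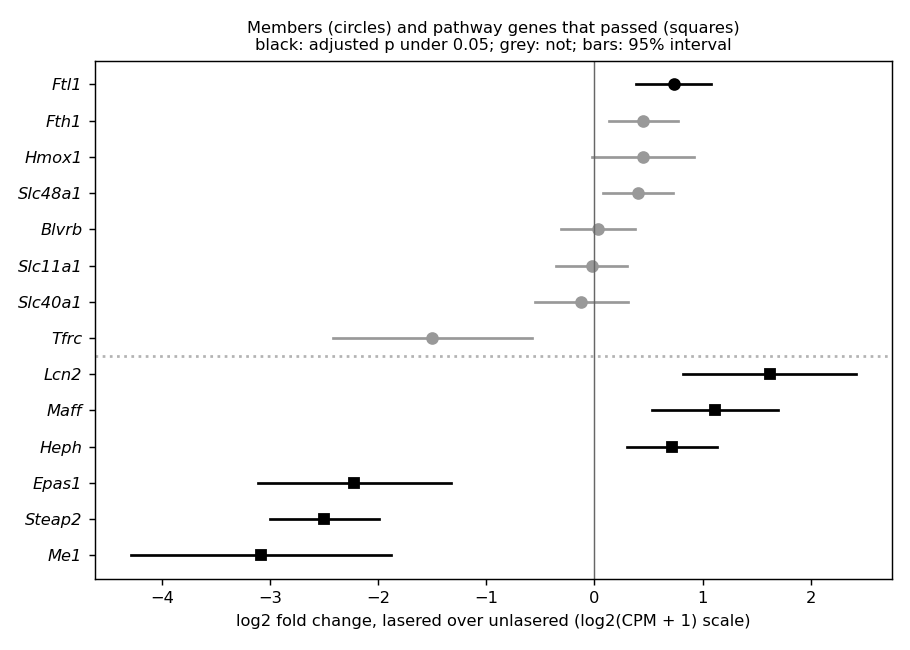
Log2 fold change of lasered over unlasered libraries on the log2(CPM + 1) scale (horizontal axis) with 95% intervals for the 8 genes (circles) and for the pathway genes that passed (squares); black marks an adjusted p under 0.05. Ftl1 at 0.73 is the black circle, and Tfrc at -1.50 has the widest interval of the circles.

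Per kilobase of exonic sequence the rows named for the 8 genes had the same order of means in both groups. Without laser the levels were 898 CPM per kb for Fth1, 335 for Ftl1, 91.1 for Slc11a1, 62.1 for Slc40a1, 40.4 for Blvrb, 29.2 for Hmox1, 21.7 for Slc48a1 and 2.36 for Tfrc. With laser they were 1233, 558, 90.2, 58.0, 40.9, 39.5, 28.8 and 0.80 CPM per kb in that order. Neighbours in this order whose libraries overlapped were Blvrb with Hmox1 in both groups, Hmox1 with Slc48a1 without laser, and Slc40a1 with Blvrb with laser. With the row shared with Gm22133 added, Ftl1 stood at 810 ± 122 CPM per kb (SD, n = 3) without laser, below Fth1, and at 1298 ± 128 CPM per kb (SD, n = 4) with laser, above Fth1, and the libraries of the 2 genes overlapped in both groups. On this scale, the order of the ferritin means with laser therefore rests on which rows are counted. Lengths are of all annotated exons joined, so isoform use could shift the scale. The joined exons came to 3469 bases for Fth1 and 1340 for Ftl1. The transcripts searched for copies were closer in length, with 880 stretches for Fth1 and 919 for Ftl1. In CPM, not divided by length, the lasered mean was 4279 for Fth1 and 1739 for Ftl1 with the shared row. The order with laser thus also depends on the lengths used.

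Few other genes of the pathway passed. Of 80 further genes in 10 lists of heme and iron metabolism, 65 could be tested, and 3 passed as higher and 3 as lower, 9.23% against 6.93% of all tested genes in either direction, with a median log2 fold change of -0.02. The lists are for context and carry no set test.

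Among iron uptake genes, 1 of 8 tested was higher and 1 lower. Lcn2, a lipocalin that binds iron-carrying siderophores, rose from 2.35, 0.292 and 0.305 CPM to 6.32, 3.43, 4.64 and 3.90 CPM (log2 fold change 1.62, limma adjusted p = 0.032). Leaving out any library but unlasered library 1 ended this call, with limma adjusted p between 0.058 and 0.085. The call was also lost with no filter on low values (limma adjusted p = 0.079) and in edgeR (adjusted p = 0.099). Lcn2 is also a neutrophil gene; the 8 neutrophil markers, Lcn2 among them, summed to 1.11 to 14.0 CPM without and 4.66 to 11.6 CPM with laser, and their part was not tested. Steap2, a metalloreductase of the endosome, fell from 8.42, 13.5 and 10.6 CPM to 1.40, 1.29, 0.697 and 0.943 CPM (log2 fold change -2.50, limma adjusted p = 0.0019). It had the lowest adjusted p among the 65 and also passed without unlasered library 2 (log2 fold change -2.34, limma adjusted p = 0.0069). The most abundant uptake genes did not pass: Hfe, a partner of the transferrin receptors, stood at 327 and 366 CPM, and Slc39a14, a metal importer, at 34.0 ± 22.05 and 80.5 ± 22.3 CPM (SD, n = 3 and 4; log2 fold change 1.35, limma adjusted p = 0.068).

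Ferroxidases, which oxidise iron as it leaves the cell, were the partners of Slc40a1 in the export list. Heph rose from 11.3, 11.3 and 8.02 CPM to 18.3, 19.7, 15.9 and 15.4 CPM (log2 fold change 0.72, limma adjusted p = 0.0499). This call sat at the threshold: it was lost in 15 of 18 alternatives, among them every fit that left out a library (limma adjusted p between 0.071 and 0.14), edgeR (adjusted p = 0.054) and a pseudocount of 0.1 (limma adjusted p = 0.0502). Cp, ceruloplasmin, was far more abundant, at 765, 687 and 900 CPM and 1023, 918, 1250 and 958 CPM, higher in all lasered libraries but not passing (log2 fold change 0.40, limma adjusted p = 0.13).

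Of the 7 tested regulators of the heme and oxidant response, Maff rose and 6 did not pass. Maff, a small MAF protein, went from 1.32, 0.438 and 0.472 CPM to 2.72, 3.94, 2.40 and 1.94 CPM (log2 fold change 1.11, limma adjusted p = 0.037). Leaving out unlasered library 2 or 3, or lasered library 1, 2 or 3, ended the call, with limma adjusted p between 0.074 and 0.099, as did testing with no filter (limma adjusted p = 0.087). Nfe2l2, which encodes NRF2, was the most abundant at 599 ± 22.5 and 488 ± 29.9 CPM (SD, n = 3 and 4), lower in all lasered libraries with a log2 fold change of -0.30 (limma adjusted p = 0.12). Mafg followed at 74.0 and 80.3 CPM.

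Of the NRF2 target genes, 1 of 13 passed, and the median log2 fold change was -0.02. Me1, malic enzyme, fell from 6.90, 35.5 and 16.6 CPM to 2.85, 0.512, 1.33 and 0.242 CPM (log2 fold change -3.08, limma adjusted p = 0.015). Its highest value was in unlasered library 2, as for the rod sum, and without that library the log2 fold change was -2.54 (limma adjusted p = 0.032). Without lasered library 2 the limma adjusted p was 0.053. Sqstm1, an autophagy receptor, stood at 398 and 404 CPM, and Prdx1, a peroxiredoxin, at 310 and 368 CPM.

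Of the iron sensing genes, 1 of 5 passed. Epas1, the hypoxia factor HIF2A, fell from 5.39, 14.6 and 6.47 CPM to 1.65, 0.958, 1.55 and 0.0808 CPM (log2 fold change -2.22, limma adjusted p = 0.017), again highest in unlasered library 2; without it the value was -1.83 (limma adjusted p = 0.037), and without lasered library 2 the limma adjusted p was 0.056. The part of rod RNA in the differences of Me1, Epas1 and Steap2 was not tested. Fbxl5, which senses iron and marks iron regulatory proteins for degradation, was at 145 and 131 CPM, and Aco1, which encodes an iron regulatory protein, at 63.6 and 65.6 CPM.

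In the other 5 lists 0 of 30 tested genes passed limma's test, and edgeR and voom called 0. At an unadjusted p under 0.05 there were 3 higher and 3 lower. DESeq2 called 2 lower, beside 6.52% of all genes. They were the heme-binding proteins Pgrmc1 and Pgrmc2, named after their values were seen (log2 fold changes of -0.40 and -0.43 in limma). Heme synthesis, 8 genes, was led by Alas1 at 181 and 169 CPM and Fech at 71.8 and 77.5 CPM. Heme transport and scavenging, 7 tested genes, was led by Lrp1, the receptor for hemopexin, at 340 ± 190 and 437 ± 74.3 CPM (SD, n = 3 and 4) and Slc46a1 at 117 and 128 CPM. Of heme degradation, 3 genes, Por stood at 118 and 101 CPM and Hmox2 at 93.3 and 90.8 CPM. The ferritin turnover list, 3 tested genes, was led by Ncoa4, the receptor that takes ferritin to the lysosome, at 234 ± 33.5 and 248 ± 11.2 CPM (SD, n = 3 and 4) and Pcbp1 at 200.1 and 197 CPM. The mitochondrial list, 9 genes, held Iscu, a scaffold for iron-sulphur clusters, at 84.5 and 84.4 CPM.

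**Figure D5:**
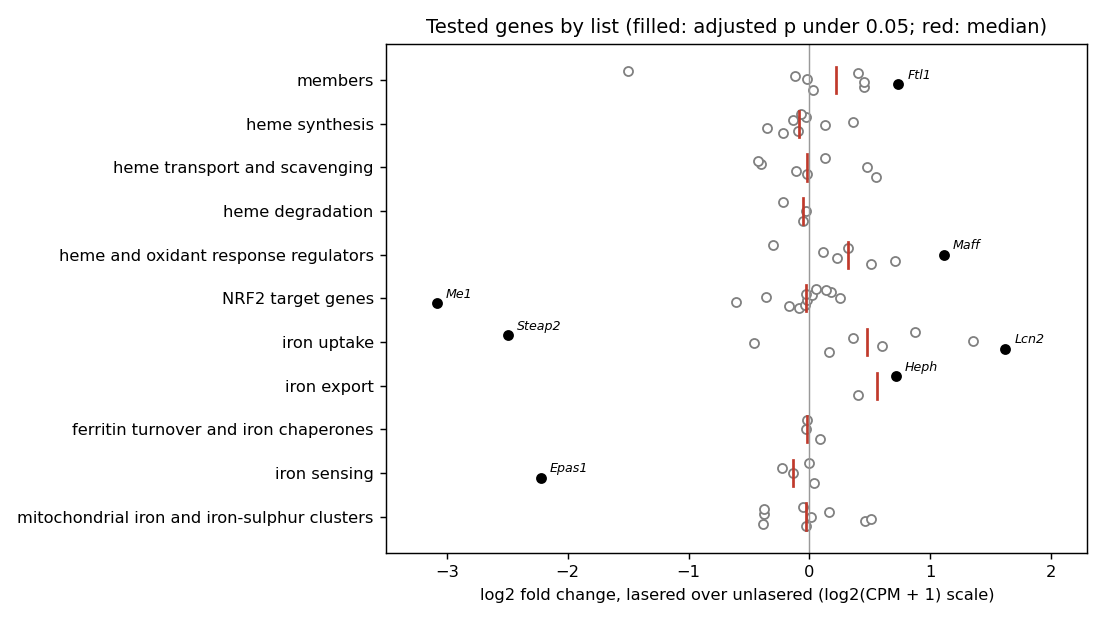
Log2 fold change (horizontal axis) of every tested gene in the lists; filled points have an adjusted p under 0.05, and red lines are list medians. Of 65 pathway genes outside the 8, the filled ones are Maff, Lcn2 and Heph to the right of 0 and Me1, Steap2 and Epas1 to the left.

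Other cell types that the gate could hold were read from marker lists. The gate itself removes Ly6C+ and Ly6G+ cells. Border macrophage markers, led by Ms4a7, summed to 2213 to 2759 CPM without and 1377 to 1594 CPM with laser, with 2 of 7 tested passing as lower. The study found Mrc1, a border macrophage marker, raised in Irf8-deficient rMG themselves, so this sum need not come from border macrophages alone. Monocyte markers, led by Fn1, summed to 136, 101 and 397 CPM without and 950, 766, 637 and 263 CPM with laser. Fn1 alone passed as higher, and the study reports its expression by microglia at sites of CNV. Of the 7 tested monocyte markers, Fn1 included, 3 had a log2 fold change above 0, and the median was -0.11. Müller glia markers, led by Apoe, summed to 52415 to 77390 CPM without and 29571 to 72726 CPM with laser. Microglia also express Apoe, the sums overlapped, and 1 of 8 tested markers passed as lower. Sums overlapped between groups for retinal pigment epithelium (led by Rlbp1, 19.1 to 38.2 CPM over all libraries), endothelium (Pecam1, 13.5 to 59.0 CPM), T and B cells (Cd79b, 9.20 to 25.7 CPM) and immediate early genes (Jun, 410 to 732 CPM). No listed marker of these types was at 0 in all 7 libraries. Their part in the levels of the 8 genes was not tested.

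Genes with the pattern most like each of the 8 were found among 10281 tested genes with a mean of at least 10 CPM, by the root mean square difference of centred log2(CPM + 1) over the 7 libraries. For Ftl1 they were its copies Ftl1-ps2 (0.034) and Gm15590 (0.035), closer than any pair found for the other 7 genes, and they share reads with it. For Fth1 they were Neurl3 (0.062) and Smim4 (0.063). Slc40a1 was closest to Ttc13 (0.039) and Hk3 (0.062), Slc11a1 to Gm43442 (0.046) and Gpatch1 (0.051), Slc48a1 to Gm10704 (0.047) and 2700060E02Rik (0.054), and Blvrb to Xlr5a (0.053) and Gm14046 (0.060). Hmox1 had less close neighbours in Uty (0.13) and Rap2b (0.13). Tfrc had the most distant neighbours, Khdrbs3 (0.41) and Tmem237 (0.45), both of them highest in unlasered library 2 like Tfrc itself. The measure is not scaled by a gene's spread. The SD of Tfrc over the 7 libraries was 0.93 on this scale, against 0.17 to 0.41 for the other 7 genes. All these distances are descriptions over the same 7 libraries, whose depth and cell make-up every gene shares.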

How the data were processed

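RNA-seq of sorted rMG from 7 libraries was analysed. Per the methods, cDNA was made with a SMARTer low-input kit and Nextera XT, reads were trimmed with cutadapt, deduplicated with FastUniq, mapped with bowtie2 (GRCm38 in the submitters' processing notes), counted with HTSeq on annotation version 90 and normalised through DESeq2. The deposited values are headed TPM, but the authors' columns hold CPM: in each library 100% of values are whole multiples of 1 read's worth within 0.0001 CPM. Reads were recovered from these steps. Counted regions can include introns, and reads in overlapping genes are listed jointly (2335 genes have only such reads). Removing duplicates may lower the highest transcripts.

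CPM were fitted as log2(CPM + 1) with limma 3.58.1 (trend and robust empirical Bayes, two-sided, Benjamini-Hochberg) over genes reaching 1 CPM in 3 or more libraries, in R 4.3.3. Fold changes on this scale understate low genes. Single values were compared by exact permutation over 35 arrangements. Alternatives were edgeR 4.0.16, DESeq2 1.42.0 and voom on recovered reads, other scalings, pseudocounts and filters, left-out libraries, and added ferritin rows. On simulated counts for this comparison, 19.3% of genes changed 2-fold, 83.1% of those changed 4-fold and 95.3% of those changed 8-fold were called, and 11.9%, 7.10% and 8.08% of the calls were of unchanged genes. These simulations changed 192, 189 and 191 tested genes, fewer than the 1213 called in the data. The adjusted p depends on how many genes change, so these rates need not hold for the data. Intervals and floors cover counting or library spread only, since reads carry no molecular identifiers.

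Gene positions, lengths, UTRs and sequences came from GENCODE M21 (GRCm38), which held 99.7% of listed genes. Named genes were the 8 members, pathway genes that passed, the 2 most abundant of each pathway list, the most abundant of each marker list, the 2 nearest in pattern, the ferritin copies and Irf8; some genes that this rule names are not reported here. The members, lists and tests were chosen with earlier results of these data known. Replicate numbers in the labels were not taken to pair the libraries.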

Additional observations from a re-analysis of the deposited data

Results flagged for a closer look

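Among 48 sets of 4 lasered libraries tested for a library far from the others, 5 stood out, where chance flags about 1 in 20. Lasered library 4 had a ratio of the Ftl1 row to Fth1 of 0.228, against 0.159 to 0.162 in the other 3, and a ratio of all light-chain rows to heavy-chain rows of 1.05, against 0.769 to 0.800. Slc11a2, the divalent metal transporter DMT1, stood at 50.2 CPM in lasered library 3 and at 34.7 to 35.8 CPM in the others. Erythrocyte markers summed to 85.6 CPM in lasered library 1 and to 0.431 to 1.67 CPM in the others. T and B cell markers summed to 23.5 CPM in lasered library 4 and to 20.5 to 20.8 CPM in the others, a small difference in size.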

How the results depend on the processing

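The range of log2 fold changes over all alternatives was 0.28 to 0.67 for Hmox1, 0.35 to 0.58 for Fth1, 0.61 to 0.86 for Ftl1, -1.85 to -1.23 for Tfrc and 0.32 to 0.53 for Slc48a1, with no change of sign. Hmox1 and Slc48a1 passed under none of their 18 alternatives. Fth1 passed at 0.54 after median-of-ratios scaling, 0.58 after TMM scaling and 0.46 in DESeq2. TMM scaling moved the median of all genes from -0.01 to 0.10. Ftl1 lost its call with no filter on low values (0.73, limma adjusted p = 0.066), where more genes were tested. Tfrc passed in DESeq2 at -1.55. The genes near 0 changed sign: Slc40a1 after TMM scaling (0.0035), and Slc11a1 after median-of-ratios scaling (0.058), TMM scaling (0.0997), edgeR (0.0031) and DESeq2 (0.00013). Blvrb did so with the replicate block, as given below, and when libraries were left out.

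Leaving out each library in turn gave 0.61 to 0.84 for Ftl1, -1.85 to -1.23 for Tfrc, -0.23 to 0.039 for Slc40a1, -0.12 to 0.055 for Slc11a1 and -0.080 to 0.19 for Blvrb. The 8 genes then gave 0 to 1 higher and 0 to 1 lower call, all genes 150 to 815 higher and 114 to 433 lower, and the pathway lists 0 to 4 higher and 1 to 5 lower. The calls of Ftl1 rested on unlasered library 2 and lasered libraries 1, 2 and 4, and the lower call of Tfrc appeared without lasered library 3.

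Of the 8 genes, 2 were higher after median-of-ratios scaling, TMM scaling and in DESeq2, 0 with no filter and with the study's thresholds, and 1 was lower in DESeq2. Over all genes, no filter gave 212 higher and 173 lower, TMM scaling 1040 higher, DESeq2 1177 higher and 1141 lower, and the study's thresholds 22 higher and 32 lower. The pathway lists gave 0 higher with no filter, beside 0.55% of all genes, and 5 after median-of-ratios and TMM scaling, beside 5.31% and 5.94%. In edgeR 1 was higher, beside 3.78% of all genes. DESeq2 gave 7 higher and 5 lower of 65, beside 6.73% and 6.52% of all genes. The cause of these differences was not tested.

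Libraries with the same number did not deviate together (correlations of -0.20, -0.12 and -0.064), so the numbers were not used as pairs. These correlations carry no test and cannot exclude pairs. With a replicate block, in which lasered library 4 has no partner, 2 genes were higher and 1 lower over all genes, 0 of the 8 and 0 pathway genes were called in either direction, Ftl1 stood at 0.67 (limma adjusted p = 0.12) and Blvrb at -0.0070.

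At 3 against 4 libraries, 19.3% of simulated 2-fold changes were called, in a simulation that changed 192 tested genes. That rate need not hold for the data, where more genes were called. Adding the rows that list named ferritin pseudogenes changed no call of the 8 genes. For Fth1 these were the whole rows of Gm27167 and Braf, which overlap Fth-ps3 and Fth-ps2. Those rows also hold reads of Gm27167 and Braf themselves, so they cannot show what heavy-chain pseudogene reads alone would do. Adding the Gm22133 row alone or with the copies that share stretches, leaving out the robust option and taking totals without rod markers were chosen after seeing the data, and none changed a call of the 8 genes.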
